A study of Drosophila melanogaster with 13 samples.

Results

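The response that optic lobe clones share on loss of either Lola or Nerfin-1 was measured in 6 mutant RNA libraries, 3 of lola[E76] and 3 of nerfin-1[159] clones, against 3 libraries of WT clones. These 9 libraries are the RNA samples among the 13 samples of the study, and they were assigned by genotype label, not by a measured value. For each gene the fitted mean of WT was subtracted from the average of the 2 mutant means, each genotype with equal weight, on the log2 scale. A gene that changed in 1 mutant alone therefore also moves this average, so the value of each genotype and the test of lola[E76] against nerfin-1[159] are given beside it.

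Clone cells were isolated by flow cytometry from the optic lobe, the part of the Drosophila brain that serves vision, at the wandering L3 stage. Cells of several sorts were pooled into each sample (33000 to 105000 cells), separate animals are not named, and p-values therefore measure the spread between these pools. The sources used here do not say how the clones were made and marked. The authors' column names hold 42D for WT and lola[E76] and 2A for nerfin-1[159], which by fly convention are recombination sites on different chromosome arms. No WT column name holds 2A, so that background and nerfin-1[159] cannot be told apart.

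In the optic lobe, neuroepithelial cells become neuroblasts, the stem cells of the fly nervous system. A neuroblast divides asymmetrically into another neuroblast and a ganglion mother cell, which divides once more into neurons. Both Lola and Nerfin-1, transcription factors with zinc fingers, act in young neurons and are known to keep medulla neurons from reverting to dividing neuroblasts. Such growth depends on RNA-binding proteins and transcription factors that mark the age of larval neuroblasts, among them Imp and Chinmo of young neuroblasts. Syp marks older ones.

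The RNA libraries held 3465601 to 5200223 counts of 3′ tags, in which 3 counts equal 0.577 to 0.866 CPM (counts scaled to a common library size, with TMM factors below). The nerfin-1 tags, on 3L, were at 123, 152 and 143 CPM in lola[E76] clones, 18.4, 6.77 and 2.13 CPM in nerfin-1[159] clones and 313, 263 and 275 CPM in WT clones. The mutant of that gene lay below every other library, and lola[E76] clones lay below WT clones as well. The lola tags, on 2R, were at 2136, 2087 and 1729 CPM in lola[E76] clones, 2430.2, 2638 and 2628 CPM in nerfin-1[159] clones and 1942, 1752 and 1596 CPM in WT clones. They were not reduced in lola[E76] clones, and the sources used here do not say whether they lie in the part that the allele alters. On the first principal component (31.85% of the variance) WT libraries (-3.81 to 0.558) lay between lola[E76] (35.9 to 56.2) and nerfin-1[159] libraries (-46.7 to -38.8). The mutants thus lay on opposite sides of WT on that component. lola[E76] replicate 1 stood apart from the other lola[E76] libraries on the third principal component (40.5 against -39.2 and -28.7). WT replicate 1 was the lowest library for several progenitor and cell cycle genes named below.

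The markers of optic lobe neurons and neuroblasts were present in all 9 libraries. Of the 8 Hox genes, which mark other brain regions and the nerve cord, 0 had enough counts for a test. Of 6 neuronal markers 5 fell in the average and elav was not called; their summed level was 6405 to 6851 CPM in lola[E76], 4729 to 5642 CPM in nerfin-1[159] and 7315 to 8831 CPM in WT clones. Of 6 neuroblast markers 5 rose, with sums of 369 to 427 CPM in lola[E76], 953 to 1104 CPM in nerfin-1[159] and 103 to 269 CPM in WT clones. In sorted bulk cells, fewer cells of a type and less RNA per cell cannot be told apart, here and in every result below.

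**Figure D1:**
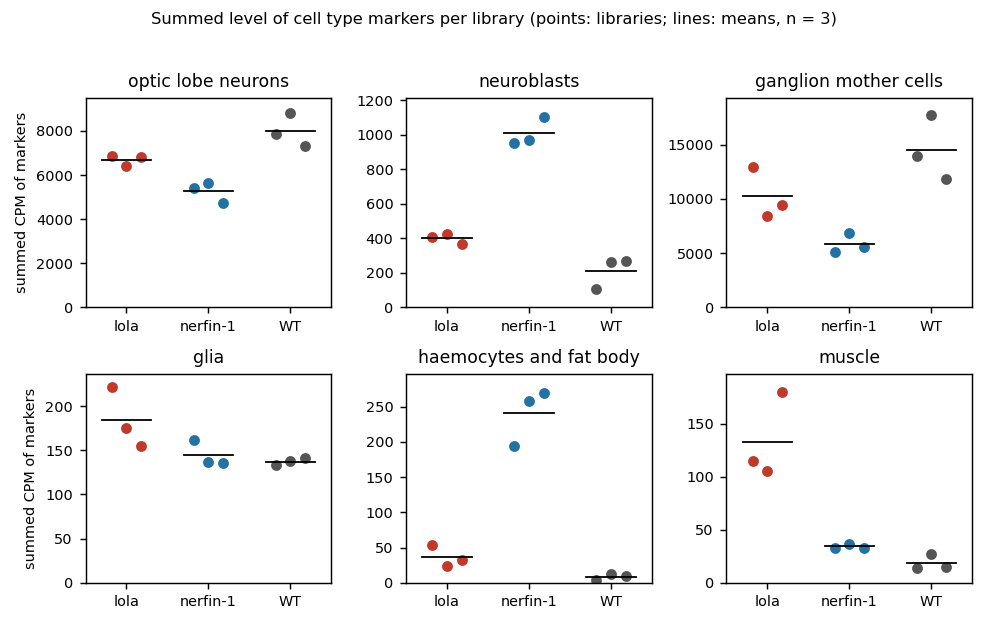
Summed CPM of the markers of 6 cell types (vertical axes, from 0) in each library of lola[E76], nerfin-1[159] and WT clones, with lines for the mean of 3 libraries. Neuroblast markers are above WT in all 6 mutant libraries and neuronal markers below. Haemocyte and fat body markers, in the mutants mostly Col4a1, are highest in nerfin-1[159] clones and muscle markers in lola[E76] clones.

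Across 7451 tested genes, genes of neuroblast identity, glycolysis, muscle and matrix and glutathione transferases were among those that rose in the average of both mutants. Genes of synapses, ion channels, transmitter receptors and neuronal identity were among those that fell. The average passed an edgeR quasi-likelihood test (Benjamini-Hochberg adjusted p of 0.05, no minimum fold) for 564 genes (7.57% of those tested). Of these 272 were higher (3.65%) and 292 lower (3.92%), and 144 higher and 120 lower genes changed at least 2-fold. These shares over all tested genes are the background for every count of called list members below, also where they are not repeated. The median average difference over all tested genes was -0.01. Set against WT on its own, lola[E76] had 484 called genes (6.5%), 267 higher (3.58%) and 217 lower (2.91%). nerfin-1[159] had 889 (11.9%), 422 higher (5.66%) and 467 lower (6.27%), against the same WT libraries. Between the mutants 1156 genes were called (15.5%), 639 higher in lola[E76] clones (8.58%) and 517 higher in nerfin-1[159] clones (6.94%).

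Of the 564 genes called in the average, 43 had fitted differences on opposite sides of WT in the 2 mutants, and 289 were also called different between the mutants. All 6 mutant libraries lay above, or all below, the 3 WT libraries for 323 of them (4.33% of tested genes), 158 higher (2.12%) and 165 lower (2.21%). Called or not, 267 genes lay above WT in this way (3.58%) and 298 below (4.0%), 565 in all (7.58%). A core of 223 genes was called, lay apart from WT in this way and was not called different between the mutants, 119 of them higher. A stricter fit with 1 mean for all 6 mutant libraries, in which any difference between the mutants counts as error, called 63 genes (0.846%), 34 higher (0.456%) and 29 lower (0.389%). All 63 were among the 564, and all 63 lay apart from WT. Without WT replicate 1 the average called 364 genes, and without WT replicate 2 it called 341.

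**Figure D2:**
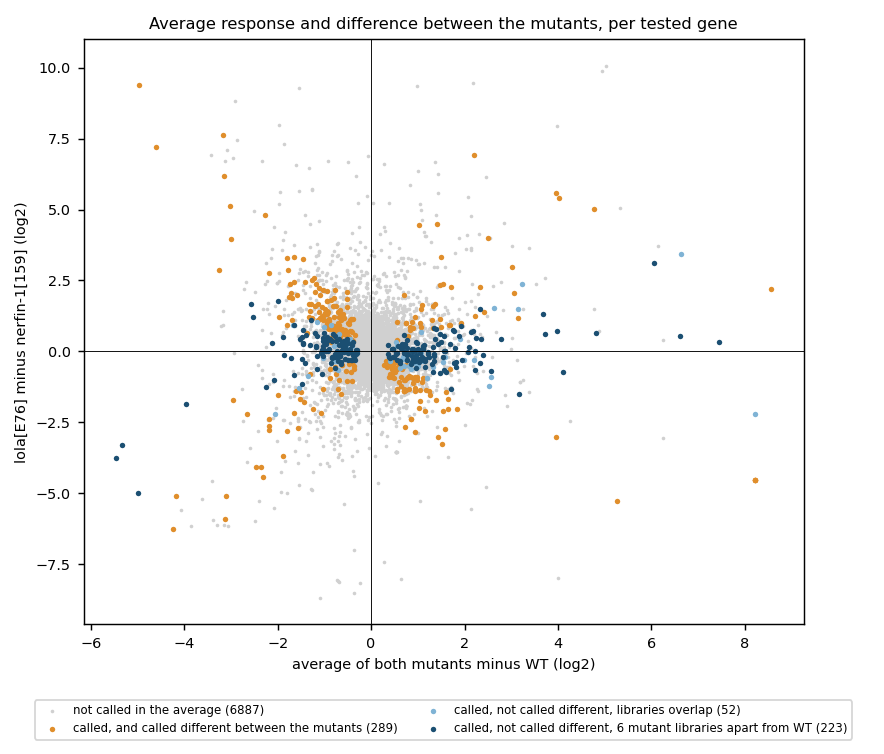
Each point is a tested gene, placed by the average of both mutants minus WT (horizontal, log2) and by lola[E76] minus nerfin-1[159] (vertical, log2). The 223 dark blue genes lie near the horizontal line, where the difference between the mutants is 0, and the 289 orange genes called different between the mutants lie above and below it.

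Several genes that define neuroblasts rose. Of 18 tested members of the list for neuroblast identity and asymmetric division, 7 rose in the average and 0 fell, against 3.65% of all tested genes called higher. The median average difference of the 18 was 0.38. By genotype the median was 0.35 for lola[E76] and 0.69 for nerfin-1[159] clones. Summed levels of the list were 4993 to 6085 CPM in lola[E76], 6101 to 6686 CPM in nerfin-1[159] and 5033 to 5304 CPM in WT clones. In this sum lola[E76] libraries overlapped WT, and nerfin-1[159] libraries lay above all others. The list holds all 6 neuroblast markers summed above. The same count of 7 was found without WT replicate 1 and without lola[E76] replicate 1. The 7 were the transcription factors dpn, wor, ase, klu and SoxN, the cortical adaptor mira and the polarity protein baz. SoxN had the smallest of these rises (0.40 ± 0.11), and its edgeR adjusted p of 0.0365 reached 0.282 without WT replicate 2; leaving out WT replicate 3, either of lola[E76] replicates 2 and 3 or either of nerfin-1[159] replicates 1 and 3 also ended its call.

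The snail family factor wor, on 2L, was at 41.4, 80.2 and 37.8 CPM in lola[E76] clones, 93.2, 73.2 and 85.3 CPM in nerfin-1[159] clones and 9.45, 13.5 and 19.5 CPM in WT clones. Every mutant library exceeded every WT library. The average difference was 2.22 ± 0.28 (log2, SE; edgeR adjusted p = 4.6e-05), and the mutants were not called different (adjusted p = 0.123). The proneural factor ase, on the X, was at 47.4, 58.2 and 28.1 CPM in lola[E76] clones, 38.8, 51.4 and 62.9 CPM in nerfin-1[159] clones and 19.4, 11 and 18.6 CPM in WT clones, again with no overlap (1.55 ± 0.27, edgeR adjusted p = 0.00118). It was -0.20 ± 0.29 between the mutants (log2, lola[E76] minus nerfin-1[159], adjusted p = 0.733). Both factors were among the 63 genes of the stricter fit.

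For baz, the fly Par-3 protein that marks the apical pole of dividing neuroblasts, the levels were 154, 223 and 194 CPM in lola[E76] clones, 166, 189 and 229 CPM in nerfin-1[159] clones and 61.3, 92.1 and 94.7 CPM in WT clones. The 2 mutants lay at nearly the same level, above WT in every library (1.21 ± 0.17, edgeR adjusted p = 0.000102), and baz was also among the 63. mira, which carries fate determinants to the ganglion mother cell, was at 144, 147 and 143 CPM in lola[E76] clones, 244, 208 and 227 CPM in nerfin-1[159] clones and 18.1, 78.3 and 86.8 CPM in WT clones. Its rise was 1.55 ± 0.29 (edgeR adjusted p = 0.00158), with WT replicate 1 the lowest library.

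The rises of dpn and klu were larger in nerfin-1[159] clones. dpn, a bHLH repressor that maintains self-renewal, was at 14.8, 11.9 and 17.4 CPM in lola[E76] clones, 45, 31.6 and 41.8 CPM in nerfin-1[159] clones and 1.35, 10.4 and 11.6 CPM in WT clones. All mutant libraries lay above WT, but lola[E76] replicate 2 by little, and the 2 mutants were called different (-1.43 ± 0.44, edgeR adjusted p = 0.0323). klu, a zinc finger factor, was at 144, 117 and 129 CPM in lola[E76] clones, 494, 556 and 638 CPM in nerfin-1[159] clones and 28.6, 132 and 117 CPM in WT clones. lola[E76] and WT clones overlapped there, so the called average of 1.53 ± 0.28 (edgeR adjusted p = 0.00157) stands on nerfin-1[159] clones. insc, which orients the spindle, was not called in the average (edgeR adjusted p = 0.492) at 13.1 ± 0.899 CPM in lola[E76], 45.7 ± 6.55 CPM in nerfin-1[159] and 19.2 ± 6.08 CPM in WT clones (SD, n = 3 each).

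**Figure D3:**
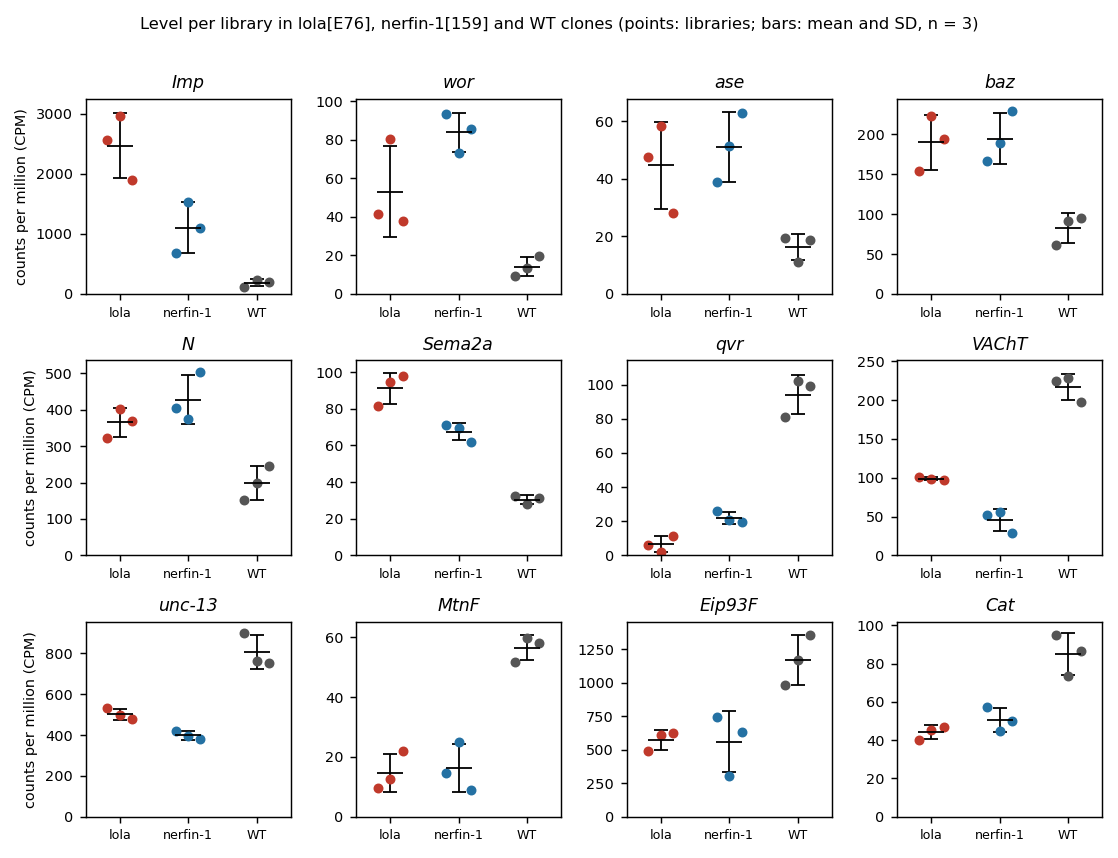
Levels of 12 genes in CPM (vertical axes, from 0) in the 3 libraries of lola[E76], nerfin-1[159] and WT clones, with horizontal bars for the mean and the SD. In each of the 12 genes the 6 mutant libraries lie wholly above WT (Imp, wor, ase, baz, N and Sema2a) or wholly below it.

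Among genes that time neuroblast age, Imp had the clearest change. Imp binds RNA and is high in young neuroblasts of the larva. It was at 2563, 2953 and 1893 CPM in lola[E76] clones, 677, 1531 and 1094 CPM in nerfin-1[159] clones and 121, 231 and 202 CPM in WT clones. The lowest mutant library was well above the highest WT library. The average difference was 3.16 ± 0.24 (edgeR adjusted p = 2.77e-07), with lola[E76] above nerfin-1[159] clones by 1.17 ± 0.24 (adjusted p = 0.00161). Its call also passed the stricter fit.

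chinmo, a BTB zinc finger factor of the same early programme that the study's title names, gave no such average. Its levels were 1753, 1729 and 1421 CPM in lola[E76] clones, 981, 1224 and 1067 CPM in nerfin-1[159] clones and 1337, 1569 and 1228 CPM in WT clones. lola[E76] libraries overlapped WT, while nerfin-1[159] libraries lay below WT, replicate 2 by little. The average was -0.05 ± 0.10 (edgeR adjusted p = 0.881), while the mutants differed from each other by 0.58 ± 0.12 (adjusted p = 0.00156). Syp, which binds RNA and is high in older neuroblasts, was at 2348 ± 161 CPM in lola[E76], 3988 ± 634 CPM in nerfin-1[159] and 2416 ± 536 CPM in WT clones (SD, n = 3 each) and its average of 0.34 ± 0.12 missed the threshold (edgeR adjusted p = 0.1). The call was made without WT replicate 3 (adjusted p = 0.0184) and without nerfin-1[159] replicate 2 (adjusted p = 0.0423).

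In all, 2 of 8 tested early timers rose and 1 fell (37.5% called, against 7.57% of all tested genes). Besides Imp the riser was lin-28, an RNA-binding protein that restrains let-7, with 124 counts over the lola[E76] libraries, 10 over the nerfin-1[159] libraries and 0 over the WT libraries. With 3 counts taken as the limit for the 3 WT libraries together, these are at least 44.1-fold and 4.05-fold higher. All 10 of the nerfin-1[159] counts were in replicate 2, and lin-28 lost its call with DESeq2 or voom, without that library, without any 1 WT library or without lola[E76] replicate 1, so that 1 early timer then rose. The zinc finger gene dati was at 182, 103 and 169 CPM in lola[E76] clones, 92.6, 156 and 106 CPM in nerfin-1[159] clones and 230.4, 249 and 199 CPM in WT clones and fell (-0.76 ± 0.17, edgeR adjusted p = 0.00817); without WT replicate 2 it was not called (adjusted p = 0.0639).

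Of 16 tested late timers and ecdysone response genes, 2 fell and 1 rose (18.8% called, against 7.57% of all tested genes). Eip93F, an ecdysone-induced factor that opens late neuronal programmes, was at 491, 608 and 626 CPM in lola[E76] clones, 746, 304 and 632 CPM in nerfin-1[159] clones and 986, 1173 and 1361 CPM in WT clones. The mutant libraries all lay below WT, and the genotype means of 575 and 560 CPM in the mutants were nearly equal (0.04 ± 0.21 between them, adjusted p = 0.943). The average of -1.05 ± 0.18 passed both fits (edgeR adjusted p = 0.000863 in the fit with 3 means). ImpE1, another ecdysone-induced gene, was at 70.4, 54.1 and 67.9 CPM in lola[E76] clones, 11, 7.52 and 10.1 CPM in nerfin-1[159] clones and 31.9, 65 and 239.7 CPM in WT clones. lola[E76] libraries overlapped WT, and the average of -2.19 ± 0.38 (edgeR adjusted p = 0.000992) was -0.98 without WT replicate 3, the highest library. ImpL2, a binding protein of insulin-like peptides, was called higher (edgeR adjusted p = 0.0388), a call that ended without nerfin-1[159] replicate 2, either of lola[E76] replicates 1 and 3 or either of WT replicates 1 and 2, while the average of 1.59 ± 0.46 was 2.51 without WT replicate 3.

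Of 13 tested factors of the medulla temporal series, scro alone was called (7.69%, against 7.57% of all tested genes). It was at 215 ± 19.8 CPM in lola[E76], 309 ± 17.9 CPM in nerfin-1[159] and 333 ± 38.1 CPM in WT clones (SD, n = 3 each). Its average was -0.37 ± 0.11 (edgeR adjusted p = 0.0379). That call was lost without any 1 WT library and without 4 of the 6 mutant libraries (replicates 1 and 3 of lola[E76], 2 and 3 of nerfin-1[159]). Of these 13 factors 10 were called different between the mutants, against 15.5% of all tested genes.

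Genes of commitment went both ways. pros, the homeodomain factor that ends self-renewal in ganglion mother cells, was at 12645, 8006 and 9014 CPM in lola[E76] clones, 4805, 6602 and 5239.8 CPM in nerfin-1[159] clones and 13416, 17302 and 11367 CPM in WT clones. nerfin-1[159] libraries lay below all others, while lola[E76] replicate 1 lay within the WT range. The average fell by 0.92 (SE 0.13, edgeR adjusted p = 0.000169), and the mutants were called different (0.83 ± 0.16, adjusted p = 0.000995). Of 10 tested commitment genes lola, nab and the Cdk inhibitor dap rose, while pros and nerfin-1 fell. None of the 3 rises was called without WT replicate 2, nor without WT replicate 3. nerfin-1, besides its low level in its own mutant, was also lower in lola[E76] than in WT clones (-1.03 ± 0.28, edgeR adjusted p = 0.0342).

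In the Notch pathway, which sustains neuroblast self-renewal, the receptor itself rose. N, on the X, was at 323, 403 and 369 CPM in lola[E76] clones, 405, 375 and 502 CPM in nerfin-1[159] clones and 152, 198 and 245 CPM in WT clones. The mutants overlapped each other and lay above WT throughout (0.99 ± 0.14, edgeR adjusted p = 0.000173; stricter fit adjusted p = 0.026). Of 20 tested pathway genes N and E(spl)mgamma-HLH rose and E(spl)m6-BFM fell (15.0% called, against 7.57% of all tested genes). E(spl)mgamma-HLH, a Notch target repressor, was at 96.6 ± 20.8 CPM in lola[E76], 246 ± 46.8 CPM in nerfin-1[159] and 91.5 ± 6.96 CPM in WT clones (SD, n = 3 each). Its lola[E76] libraries overlapped WT, and the mutants were called different (-1.35 ± 0.18, edgeR adjusted p = 2.65e-05).

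Most cell cycle genes had an average above WT, with higher levels in nerfin-1[159] than in lola[E76] clones. Of 25 tested G1 to S and replication genes 23 had an average above 0, with a median of 0.70, and 4 were called higher (CycE, E2f1, Mcm5 and dup). Of 24 tested G2 and mitosis genes 22 lay above 0, with a median of 0.48, and 5 were called higher (CycA, CycB, polo, Incenp and Klp61F). None of these genes was called lower. The shares called higher were 16.0% for G1 to S and 20.8% for G2 and mitosis genes, against 3.65% of all tested genes. By genotype the G1 to S median was 0.51 for lola[E76] and 0.84 for nerfin-1[159] clones, and the G2 and mitosis median was 0.22 for lola[E76] and 0.78 for nerfin-1[159] clones. Summed G1 to S levels were 2955 to 3068 CPM in lola[E76], 4275 to 4841 CPM in nerfin-1[159] and 1895 to 3063 CPM in WT clones. Summed G2 and mitosis levels were 1132 to 1408 CPM in lola[E76], 2053 to 2353 CPM in nerfin-1[159] and 932 to 1452 CPM in WT clones. In both sums lola[E76] libraries overlapped WT, and nerfin-1[159] libraries lay above all others. The neuroblast marker sums lay above WT as well, and their part in these values was not tested.

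WT replicate 1 was low for several of them. CycE, the cyclin of S phase entry, was at 155, 145 and 148 CPM in lola[E76] clones, 269.6, 168 and 225 CPM in nerfin-1[159] clones and 20.5, 95.6 and 126 CPM in WT clones. Mcm5, a subunit of the replicative helicase, was at 48.2, 33.4 and 37.3 CPM in lola[E76] clones, 47, 26.6 and 53.3 CPM in nerfin-1[159] clones and 4.86, 20.2 and 22.5 CPM in WT clones. In both genes WT replicate 1 lay far below the other WT libraries. CycE rose (1.16 ± 0.32, edgeR adjusted p = 0.0317), a call that ended without either of nerfin-1[159] replicates 1 and 3, lola[E76] replicate 3 or WT replicate 2 (adjusted p up to 0.0624) and with DESeq2 (adjusted p = 0.144). Without WT replicate 1, 2 G1 to S genes and 3 mitotic genes were called, and Mcm5 was not (adjusted p = 0.0795, and 0.0602 without nerfin-1[159] replicate 3). The count of G1 to S genes was 7 without WT replicate 3 and 2 without WT replicate 2, lola[E76] replicate 3 or nerfin-1[159] replicate 3. That of mitotic genes was also 3 without WT replicate 3, lola[E76] replicate 2 or nerfin-1[159] replicate 3. The calls of dup (WT replicates 1 and 2), polo (WT replicates 1 and 2), CycB (WT replicates 1 and 3) and Klp61F (WT replicates 2 and 3) each ended when either of the libraries in brackets was left out, and those of dup, polo and Klp61F without some mutant libraries as well. CycA, the mitotic cyclin A, was at 279, 212 and 219.6 CPM in lola[E76] clones, 433, 431 and 448 CPM in nerfin-1[159] clones and 141, 169 and 225 CPM in WT clones. nerfin-1[159] libraries were the highest, lola[E76] and WT libraries overlapped, and the mutants were called different (-0.89 ± 0.15, edgeR adjusted p = 0.000436).

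Of 25 tested growth and nucleolus genes, nop5 and Nop60B, parts of small nucleolar ribonucleoproteins, were called higher (8.0%, against 3.65% of all tested genes). Both calls ended without nerfin-1[159] replicate 2, lola[E76] replicate 1 or either of WT replicates 1 and 2. The nop5 call was also lost without WT replicate 3, and that of Nop60B without nerfin-1[159] replicate 3. Myc was not called (0.27 ± 0.12, edgeR adjusted p = 0.215).

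Many genes of synaptic transmission fell. Of 19 tested genes of synaptic vesicle release 9 fell and 0 rose, against 3.92% of all tested genes called lower, with a median average difference of -0.60. By genotype the median was -0.29 for lola[E76] and -0.96 for nerfin-1[159] clones. Of the 9, 5 lay apart from WT in all 6 mutant libraries, and 1, unc-13, passed the stricter fit. Summed levels of the list were 3333 to 3415 CPM in lola[E76], 3074 to 3248 CPM in nerfin-1[159] and 4319 to 4622 CPM in WT clones. The list shares nSyb, brp and Syt1 with the neuronal markers. Here and in the neuronal groups that follow, the neuronal marker sums lay below WT as well, and their part in the falls was not tested.

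unc-13, a priming factor of synaptic vesicles, was at 530.2, 496 and 476 CPM in lola[E76] clones, 420.5, 395 and 379 CPM in nerfin-1[159] clones and 900.3, 763 and 751 CPM in WT clones. The 6 mutant libraries lay below WT (-0.85 ± 0.09, edgeR adjusted p = 1.09e-05), and those of nerfin-1[159] lay below those of lola[E76] (0.33 ± 0.11 between the mutants, adjusted p = 0.046). nSyb, the neuronal synaptobrevin of vesicle fusion, was at 13.3, 17.5 and 59.6 CPM in lola[E76] clones, 147, 155 and 122 CPM in nerfin-1[159] clones and 452, 399 and 394 CPM in WT clones. All mutant libraries lay far below WT, those of lola[E76] furthest (-2.67 ± 0.26, edgeR adjusted p = 2.69e-06; -2.22 ± 0.34 between the mutants, adjusted p = 0.000119). brp, the scaffold of the active zone, was at 239, 294 and 237 CPM in lola[E76] clones, 187, 123 and 119 CPM in nerfin-1[159] clones and 340.1, 359 and 314 CPM in WT clones, likewise apart from WT but with nerfin-1[159] the lower mutant (-0.82 ± 0.13, edgeR adjusted p = 0.00058). Frq1, a frequenin calcium sensor, fell in the average (-1.69 ± 0.22, edgeR adjusted p = 8.15e-05). There nerfin-1[159] lay below lola[E76] clones, with a called difference of 1.87 between the mutants, and Frq1 did not pass the stricter fit (edgeR adjusted p = 0.229).

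Several of the other falls stand on nerfin-1[159] clones. Rab3, a vesicle GTPase, was at 77, 72 and 81.1 CPM in lola[E76] clones, 26.9, 24.6 and 10.7 CPM in nerfin-1[159] clones and 65.6, 76.2 and 66.1 CPM in WT clones. lola[E76] libraries overlapped WT and nerfin-1[159] libraries lay well below, with 1.89 ± 0.26 between the mutants (edgeR adjusted p = 4.25e-05). Rim, another active zone protein, was at 254 ± 53.2 CPM in lola[E76], 103 ± 20.4 CPM in nerfin-1[159] and 244 ± 54.8 CPM in WT clones (SD, n = 3 each), a like pattern (1.31 ± 0.19, edgeR adjusted p = 6.29e-05). The averages of Rab3, Rim and Syt1 were not called without WT replicate 2 (edgeR adjusted p = 0.134, 0.245 and 0.178), Rab3 also not without WT replicate 1 or 3, and Rim not without nerfin-1[159] replicate 2 or 3.

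Cholinergic genes, the main excitatory system of the fly brain, were lower. VAChT, which loads acetylcholine into vesicles, was at 100.4, 98.5 and 97.2 CPM in lola[E76] clones, 51.5, 55.9 and 28.8 CPM in nerfin-1[159] clones and 224, 229 and 198 CPM in WT clones. Both mutants lay below every WT library, nerfin-1[159] clones lowest (-1.70 ± 0.16, edgeR adjusted p = 1.46e-06; stricter fit adjusted p = 0.0342). ChAT, the enzyme that makes acetylcholine, was at 37.5, 63.8 and 80.6 CPM in lola[E76] clones, 22.7, 23.8 and 28.5 CPM in nerfin-1[159] clones and 83.2, 76.2 and 76.4 CPM in WT clones. There lola[E76] replicate 3 lay within the WT range (-1.01 ± 0.20, edgeR adjusted p = 0.00249). These were the 2 of 9 tested genes of transmitter synthesis and transport that fell (22.2%, against 3.92% of all tested genes called lower), and 0 rose.

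Of 26 tested transmitter receptors 9 fell and 0 rose (34.6%, against 3.92% of all tested genes called lower), with a median of -0.46. Without WT replicate 2, 5 fell. By genotype the receptor median was 0.01 for lola[E76] and -0.92 for nerfin-1[159] clones. nAChRalpha7, a nicotinic receptor subunit, was at 68.7, 41.8 and 51.6 CPM in lola[E76] clones, 42.5, 26.1 and 16.3 CPM in nerfin-1[159] clones and 139, 135 and 134 CPM in WT clones. The WT libraries were close together and far above both mutants (-1.80 ± 0.21, edgeR adjusted p = 2.43e-05; stricter fit adjusted p = 0.0293).

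The inhibitory receptors Lcch3 and GABA-B-R1 were lowest in lola[E76] clones. Lcch3, a subunit of a GABA-gated channel, was at 4.6, 4.31 and 1.34 CPM in lola[E76] clones, 31.7, 21.3 and 17.6 CPM in nerfin-1[159] clones and 45.6, 41.4 and 35.1 CPM in WT clones (-2.18 ± 0.29, edgeR adjusted p = 9.93e-05). GABA-B-R1, a metabotropic GABA receptor, was at 6.53, 5.6 and 11.8 CPM in lola[E76] clones, 26.9, 25.8 and 16.8 CPM in nerfin-1[159] clones and 59.96, 46.2 and 56.7 CPM in WT clones (-1.99 ± 0.25, edgeR adjusted p = 4.6e-05). Both genes lay apart from WT in all 6 mutant libraries and were called different between the mutants (adjusted p = 6.23e-05 and 0.00211). Nmdar1, a glutamate receptor, had 0 counts over the lola[E76] libraries and 10 over the nerfin-1[159] libraries, against 74 in WT clones. It was at least 23.1-fold lower in lola[E76] clones, with 3 counts as the limit for that group, and its average was no longer called without any 1 WT library.

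Among 17 tested voltage-gated channels and regulators 6 fell and 1 rose (41.2% called, against 7.57% of all tested genes). qvr, a small membrane protein that tunes Shaker potassium channels, was at 6.29, 2.15 and 11.4 CPM in lola[E76] clones, 25.8, 20.6 and 19.5 CPM in nerfin-1[159] clones and 81, 102 and 99.3 CPM in WT clones. All mutant libraries lay far below WT, lola[E76] lowest (-2.97 ± 0.27, edgeR adjusted p = 1.5e-06), and qvr passed the stricter fit as well (adjusted p = 0.0273). Sh, the Shaker channel, was at 672, 753 and 510.5 CPM in lola[E76] clones, 186, 142 and 156 CPM in nerfin-1[159] clones and 996, 1027 and 880.0 CPM in WT clones. The order was reversed there, with nerfin-1[159] lowest (-1.59 ± 0.11, edgeR adjusted p = 2.28e-07; 2.00 ± 0.14 between the mutants, adjusted p = 1.96e-08).

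A pair of calcium channels were lowest in different mutants. Ca-alpha1D was at 0, 2.15 and 4.69 CPM in lola[E76] clones, 9.06, 16.8 and 10.9 CPM in nerfin-1[159] clones and 30.5, 23.1 and 19.5 CPM in WT clones, lowest in lola[E76] clones (-2.18 ± 0.47, edgeR adjusted p = 0.00562). Ca-alpha1T was at 37.5, 39.2 and 52.3 CPM in lola[E76] clones, 7.36, 11.8 and 4.53 CPM in nerfin-1[159] clones and 37.3, 55.4 and 55.5 CPM in WT clones, where lola[E76] and WT libraries overlapped and nerfin-1[159] was lower (-1.42 ± 0.25, edgeR adjusted p = 0.001). para, the voltage-gated sodium channel, followed the pattern of Ca-alpha1T (-0.50 ± 0.23 in lola[E76] and -2.16 ± 0.25 in nerfin-1[159], both log2 against WT). The riser was NaCP60E, a relative of that channel, at 111 ± 24.3 CPM in lola[E76], 54 ± 7.51 CPM in nerfin-1[159] and 42 ± 6.01 CPM in WT clones (SD, n = 3 each; 0.89 ± 0.18, edgeR adjusted p = 0.0032).

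Of 7 tested neuropeptide processing genes, amon and svr fell (28.6%, against 3.92% of all tested genes called lower). Summed levels of the list were 961 to 1020 CPM in lola[E76], 345 to 423 CPM in nerfin-1[159] and 624 to 690 CPM in WT clones. In this sum lola[E76] libraries lay above WT and nerfin-1[159] libraries below it. The peptidase svr was at 39.9, 46.5 and 49.1 CPM in lola[E76] clones, 50.4, 48.4 and 41 CPM in nerfin-1[159] clones and 80.8, 75.2 and 69 CPM in WT clones, with nearly equal mutants below WT (-0.71 ± 0.16, edgeR adjusted p = 0.00727; 0.0588 without WT replicate 1). amon, the prohormone convertase, had 1 count over the lola[E76] libraries and 92 over the nerfin-1[159] libraries, against 240 in WT clones. The average difference of amon was -4.23 ± 0.53, and -5.15 without lola[E76] replicate 3, which held that count.

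Factors that give medulla neurons their identity were lower, several of them in 1 mutant more than in the other. Of 27 tested factors 8 fell and 0 rose (29.6%, against 3.92% of all tested genes called lower), with a median of -0.44. Without WT replicate 1, WT replicate 2 or nerfin-1[159] replicate 2, 5 fell. Lim1, a LIM homeodomain factor, was at 83, 70.7 and 91.4 CPM in lola[E76] clones, 125, 136 and 119 CPM in nerfin-1[159] clones and 179, 206 and 177 CPM in WT clones. It lay below WT in all 6 mutant libraries (-0.88 ± 0.12, edgeR adjusted p = 0.000129), with lola[E76] lower than nerfin-1[159] (adjusted p = 0.0051). toy, a Pax6 factor, was at 149.8, 107 and 139 CPM in lola[E76] clones, 161, 185 and 158 CPM in nerfin-1[159] clones and 286, 207 and 234 CPM in WT clones, apart from WT and not called different between the mutants (-0.70 ± 0.13, edgeR adjusted p = 0.00166; adjusted p = 0.153 between the mutants). vvl, a POU factor, fell by 0.88 in the average, a call lost without WT replicate 1 (adjusted p = 0.0669) and with DESeq2 (adjusted p = 0.0867).

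ap, a LIM homeodomain factor, was at 38.7, 58.4 and 38.6 CPM in lola[E76] clones, 6.23, 4.51 and 3.2 CPM in nerfin-1[159] clones and 50.8, 52.1 and 49.6 CPM in WT clones. lola[E76] libraries overlapped WT and nerfin-1[159] libraries lay at a small fraction of either (3.28 ± 0.30 between the mutants, edgeR adjusted p = 4.17e-07). kn, the COE factor, was at 48.2, 44.4 and 60.8 CPM in lola[E76] clones, 90.9, 124 and 167 CPM in nerfin-1[159] clones and 135, 133 and 125 CPM in WT clones, the reverse pattern, with lola[E76] alone below WT (-1.32 ± 0.20, edgeR adjusted p = 0.000116). The average of kn was not called without WT replicate 2 (adjusted p = 0.0525). Of the 27 factors 14 were called different between the mutants, against 15.5% of all tested genes.

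The dpr and DIP proteins, immunoglobulin partners that match synaptic cells, fell in 8 of 28 tested genes and rose in 0 (28.6%, against 3.92% of all tested genes called lower). Their median was -0.80 (-0.38 for lola[E76], -1.17 for nerfin-1[159] clones). Without WT replicate 2 there were 5 falls and without WT replicate 3 there were 4. dpr9 was at 31.9, 28.4 and 40.7 CPM in lola[E76] clones, 9.06, 5.01 and 12.8 CPM in nerfin-1[159] clones and 53.2, 63.9 and 58.2 CPM in WT clones. It lay below WT in every mutant library, nerfin-1[159] lowest (-1.75 ± 0.23, edgeR adjusted p = 9.26e-05). DIP-theta was at 5.81, 2.15 and 8.94 CPM in lola[E76] clones, 2.27, 3.01 and 0 CPM in nerfin-1[159] clones and 23.8, 17.7 and 15.2 CPM in WT clones, also apart from WT, and was not called different between the mutants (-2.57 ± 0.55, edgeR adjusted p = 0.00511).

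Of 33 tested axon guidance genes 1 rose and 3 fell (12.1% called), against 7.57% of all tested genes called. The number of falls was 6 without nerfin-1[159] replicate 1 and 5 without lola[E76] replicate 3 or nerfin-1[159] replicate 2. Sema2a, a secreted semaphorin, was at 81.6, 94.4 and 97.6 CPM in lola[E76] clones, 71.1, 69.5 and 62.1 CPM in nerfin-1[159] clones and 32.4, 27.9 and 31.1 CPM in WT clones. Each mutant library had more than each WT library (1.37 ± 0.16, edgeR adjusted p = 3.43e-05; stricter fit adjusted p = 0.0121). The transmembrane semaphorin Sema1a went the other way, at 539 ± 65.8 CPM in lola[E76], 718 ± 12.5 CPM in nerfin-1[159] and 831 ± 29.6 CPM in WT clones (SD, n = 3 each; -0.42 ± 0.09, edgeR adjusted p = 0.00583). elav, the pan-neuronal RNA-binding protein, was at 2194 ± 237 CPM in lola[E76], 2345 ± 113 CPM in nerfin-1[159] and 2492 ± 295 CPM in WT clones (SD, n = 3 each) and was not called (-0.14 ± 0.09, edgeR adjusted p = 0.47). Its relative fne fell in the average (-0.51 ± 0.10, edgeR adjusted p = 0.00278). There nerfin-1[159] lay below lola[E76] clones, with a called difference of 0.67 between the mutants, and fne did not pass the stricter fit (edgeR adjusted p = 0.374). stai, the stathmin that binds tubulin, lay below WT in all 6 mutant libraries (-0.66 ± 0.10, edgeR adjusted p = 0.00036).

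**Figure D4:**
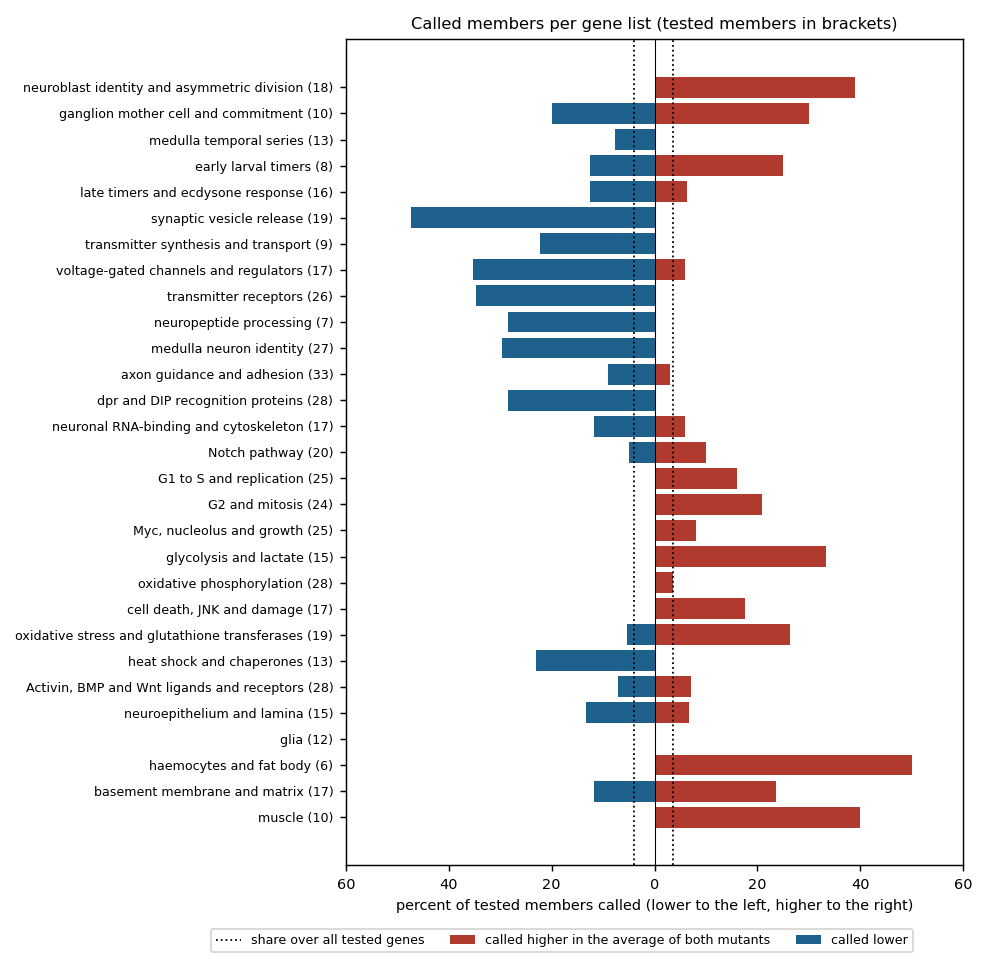
Percent of tested members of each gene list called lower (bars to the left) or higher (bars to the right) (horizontal axis) in the average of both mutants, for lists with at least 5 tested members, given in brackets; dotted lines mark 3.92% lower and 3.65% higher over all tested genes. Neuronal lists extend to the left and neuroblast, cell cycle and glycolysis lists to the right. The longest bar to the right is that of haemocytes and fat body (3 of 6 tested), followed by muscle (4 of 10). Oxidative stress and matrix lists extend further to the right than the cell cycle lists, and heat shock extends to the left.

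Glycolytic genes rose in 5 of 15 tested and fell in 0, against 3.65% of all tested genes called higher. Of the 15, 9 had an average above 0. By genotype the median was 0.11 for lola[E76] and 0.40 for nerfin-1[159] clones. PyK, pyruvate kinase, was at 71.9, 69.6 and 78.9 CPM in lola[E76] clones, 91.7, 93.8 and 82.4 CPM in nerfin-1[159] clones and 32.4, 44.2 and 40.9 CPM in WT clones. Gapdh1 was at 158, 156 and 169.6 CPM in lola[E76] clones, 161, 136 and 126 CPM in nerfin-1[159] clones and 85.4, 90.4 and 96.1 CPM in WT clones. Both enzymes were higher than WT in all 6 mutant libraries, were not called different between the mutants, and passed the stricter fit (average 1.04 ± 0.16 and 0.73 ± 0.13, edgeR adjusted p = 0.00036 and 0.001). Ldh, lactate dehydrogenase, was at 44.3, 28.7 and 12.3 CPM in lola[E76] clones, 69.1, 64.4 and 63.2 CPM in nerfin-1[159] clones and 0.27, 15.6 and 6.06 CPM in WT clones. lola[E76] replicate 3 lay below WT replicate 2 there, and the average of 2.51 ± 0.53 (edgeR adjusted p = 0.0047) was 3.64 without WT replicate 2. Glut1, a glucose transporter, was at 243, 238 and 214 CPM in lola[E76] clones, 1008, 865 and 866 CPM in nerfin-1[159] clones and 227, 240.1 and 212 CPM in WT clones, a rise of nerfin-1[159] clones over both others (-1.98 ± 0.12, edgeR adjusted p = 2.97e-09). Of 28 tested oxidative phosphorylation genes 1 rose (3.57%), ND-30, a subunit of complex I, which was not called without WT replicate 1 or 2.

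A few genes of cell death and oxidative stress rose in the average. Of 17 tested death, JNK and damage genes hid, rpr and egr rose and 0 fell (17.6%, against 3.65% of all tested genes called higher). hid, a trigger of apoptosis, was at 83.5, 78.4 and 75.5 CPM in lola[E76] clones, 46.2, 42.6 and 41.8 CPM in nerfin-1[159] clones and 30.3, 20.2 and 33.4 CPM in WT clones, and rpr, another, was at 49.6, 38.6 and 60.1 CPM in lola[E76] clones, 33.4, 48.6 and 37 CPM in nerfin-1[159] clones and 20.3, 27.9 and 19.9 CPM in WT clones. All 6 mutant libraries exceeded WT for both, with lola[E76] the higher for hid (average 1.07 ± 0.19 and 0.96 ± 0.23, edgeR adjusted p = 0.00125 and 0.0107). The rpr call was lost without WT replicate 1 or 3. egr, the fly TNF ligand, was at 26.6, 50.2 and 39.5 CPM in lola[E76] clones, 89.2, 64.7 and 64.5 CPM in nerfin-1[159] clones and 25.9, 25.2 and 29.6 CPM in WT clones, with -0.90 ± 0.24 between the mutants (edgeR adjusted p = 0.0125); its average of 0.98 ± 0.22 was not called without WT replicate 2 (adjusted p = 0.0507).

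Of 19 tested oxidative stress genes and glutathione transferases GstD1, GstD3, GstD9, GstE6 and GstE12 rose and Cat fell (31.6% called, against 7.57% of all tested genes). GstD1, a transferase induced by oxidants, was at 86.4, 78 and 63.9 CPM in lola[E76] clones, 61.4, 33.1 and 61.6 CPM in nerfin-1[159] clones and 14.6, 21.9 and 26.5 CPM in WT clones. GstD3, its neighbour in sequence, was at 45, 61.8 and 53.8 CPM in lola[E76] clones, 45.9, 43.4 and 58.1 CPM in nerfin-1[159] clones and 3.51, 19.99 and 19.7 CPM in WT clones. Both lay above WT throughout (1.57 ± 0.24 and 1.80 ± 0.35, edgeR adjusted p = 0.000366 and 0.00214), but members of this family share sequence, so how counts divide between them is uncertain. The call of GstD9 ended without WT replicate 1 or 3, and the average of GstE6, 3.98 ± 0.90, was 5.59 without WT replicate 3. Cat, the catalase that breaks down hydrogen peroxide, fell and was at 40.2, 45.5 and 46.9 CPM in lola[E76] clones, 57.2, 44.6 and 49.8 CPM in nerfin-1[159] clones and 95.1, 73.3 and 86.8 CPM in WT clones. The mutants overlapped each other and lay below WT (-0.85 ± 0.16, edgeR adjusted p = 0.00157; stricter fit adjusted p = 0.0342). GstE12 was higher in lola[E76] clones alone (3.34 ± 0.31 between the mutants, edgeR adjusted p = 3.93e-07).

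Of 13 tested heat shock genes 3 fell and 0 rose (23.1%, against 3.92% of all tested genes called lower). The small heat shock gene Hsp67Bc was at 121, 201 and 228 CPM in lola[E76] clones, 304, 133 and 174 CPM in nerfin-1[159] clones and 509, 312 and 468 CPM in WT clones, below WT in all 6 mutant libraries by a small margin (-1.15 ± 0.21, edgeR adjusted p = 0.00149). Hsp26 was at 1470.3, 1468 and 1581 CPM in lola[E76] clones, 2216, 1479 and 2164 CPM in nerfin-1[159] clones and 2682, 2227 and 3121 CPM in WT clones, also apart from WT (-0.64 ± 0.12, edgeR adjusted p = 0.00132).

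The 20 genes named for the largest change shared by both mutants were chosen on these values, which are given as a description. They were called, lay apart from WT in all 6 mutant libraries and were not called different between the mutants. The 10 higher were Brd, yuri, CG6845, lok, CG10462, Adgf-A, wor, snoRNA:185, CG3663 and GstD3. Brd, a Bearded family protein that acts on Notch ligand signalling, was at 14.3, 11.4 and 15.4 CPM in lola[E76] clones, 8.21, 11 and 10.9 CPM in nerfin-1[159] clones and 0.81, 1.67 and 2.46 CPM in WT clones (2.78 ± 0.50). yuri was at 15.7, 19.8 and 21 CPM in lola[E76] clones, 15.9, 16.8 and 22.9 CPM in nerfin-1[159] clones and 3.78, 2.71 and 5.31 CPM in WT clones (2.23 ± 0.36). In both genes the mutants lay at a like level, several-fold above WT. Adgf-A, a secreted adenosine deaminase, was at 43.8, 28.4 and 29.7 CPM in lola[E76] clones, 21.5, 18.8 and 33.3 CPM in nerfin-1[159] clones and 4.05, 6.25 and 7.58 CPM in WT clones (2.25 ± 0.32). CG10462 was at 34.8, 47.6 and 43.3 CPM in lola[E76] clones, 41.3, 30.8 and 40.8 CPM in nerfin-1[159] clones and 13.2, 5.21 and 9.47 CPM in WT clones (2.11 ± 0.29). lok, the Chk2 kinase of the DNA damage checkpoint, had 151 counts over lola[E76], 130 over nerfin-1[159] and 40 over WT libraries. Its call was lost without WT replicate 1 or 2 or nerfin-1[159] replicate 2, and that of snoRNA:185 without WT replicate 1 or 2. Without WT replicate 3, the average of lok was 3.43 in place of 2.07 ± 0.57 and that of snoRNA:185 was 2.83 in place of 2.18 ± 0.51.

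The 10 lower were Gycbeta100B, MtnF, DIP-theta, Myo81F, E(spl)m6-BFM, qtc, CG5758, CG43902, lncRNA:CR44272 and CG32206. MtnF, a metallothionein, was at 9.68, 12.5 and 21.9 CPM in lola[E76] clones, 14.7, 24.8 and 9.06 CPM in nerfin-1[159] clones and 51.9, 59.6 and 58.2 CPM in WT clones (-1.87 ± 0.28). qtc, a coiled-coil protein, was at 12.8, 4.96 and 14.7 CPM in lola[E76] clones, 11.3, 17.6 and 9.6 CPM in nerfin-1[159] clones and 41.6, 36.4 and 38.5 CPM in WT clones (-1.72 ± 0.30). The WT libraries of both were tightly grouped and the mutants overlapped each other well below. Gycbeta100B, a subunit of soluble guanylyl cyclase, was at 6.29, 3.88 and 6.48 CPM in lola[E76] clones, 5.38, 1.5 and 0.267 CPM in nerfin-1[159] clones and 15.9, 26.2 and 21 CPM in WT clones (-2.54 ± 0.49, and -3.22 without nerfin-1[159] replicate 1). CG43902 was at 46.2, 27.8 and 63 CPM in lola[E76] clones, 54.4, 25.6 and 34.7 CPM in nerfin-1[159] clones and 115, 109 and 120.3 CPM in WT clones (-1.46 ± 0.22). The calls of CG5758 and lncRNA:CR44272 were lost without WT replicate 3 and WT replicate 1 in turn. Of the 20 genes, yuri, CG10462, Adgf-A, wor, Brd, MtnF, Myo81F, qtc, CG5758 and CG43902 also passed the stricter fit.

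**Figure D5:**
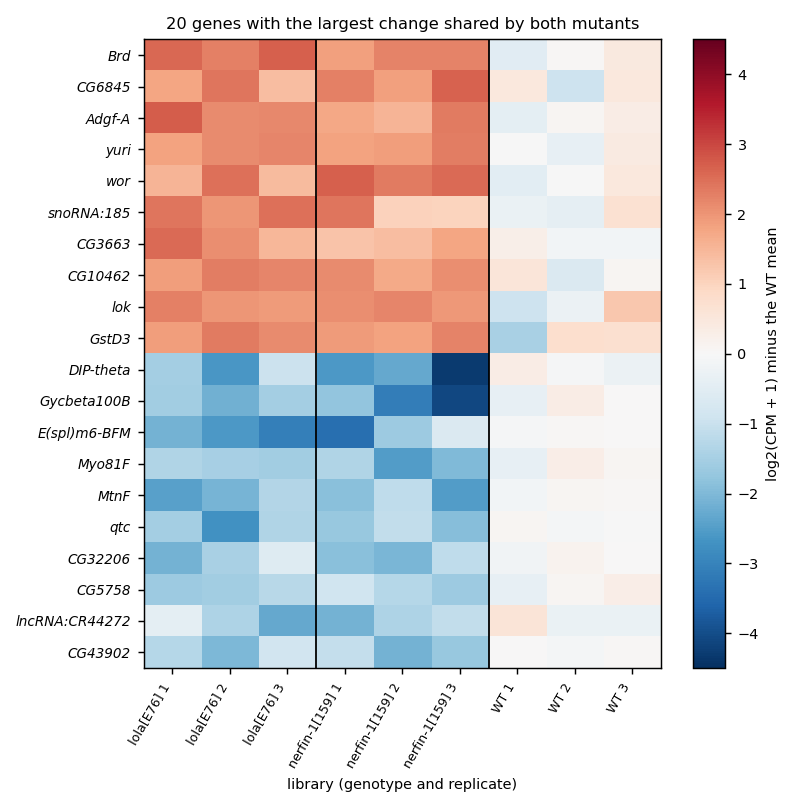
Level of the 20 genes (rows) in the 9 libraries (columns), as log2(CPM + 1) minus the mean of the 3 WT libraries. The upper 10 genes are red in all 6 mutant libraries and the lower 10 are blue.

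Further genes of the 63 in the stricter fit were chosen for naming after their values were seen. cno, the junction protein Canoe, was at 67.3, 57.3 and 46.9 CPM in lola[E76] clones, 70.8, 102 and 77.8 CPM in nerfin-1[159] clones and 15.1, 19.8 and 23.5 CPM in WT clones (1.82 ± 0.21). l(2)gl, a tumour suppressor of cell polarity, was at 83.5, 109 and 92.7 CPM in lola[E76] clones, 106, 141 and 111 CPM in nerfin-1[159] clones and 55.4, 50.6 and 60.8 CPM in WT clones (0.94 ± 0.16). Inx3, a gap junction innexin, was at 196, 175 and 151 CPM in lola[E76] clones, 199.6, 206 and 230.3 CPM in nerfin-1[159] clones and 78.6, 92.1 and 92.1 CPM in WT clones (1.13 ± 0.13). Moe, which links membrane and actin, was at 527, 528 and 460.4 CPM in lola[E76] clones, 454, 479.7 and 468 CPM in nerfin-1[159] clones and 262, 341 and 333 CPM in WT clones (0.64 ± 0.11). In these genes and in baz no mutant library reached down to the WT range, and in cno, l(2)gl, Inx3, Moe and baz the mutants were not called different. shg, the E-cadherin of epithelia, rose as well (0.70 ± 0.15, edgeR adjusted p = 0.00498) but did not pass the stricter fit (adjusted p = 0.0775).

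Other risers of that fit, chosen in the same way, were ps, how, Tab2 and Faa. ps, the splicing factor Pasilla, was at 178, 134 and 122 CPM in lola[E76] clones, 194, 260.0 and 215 CPM in nerfin-1[159] clones and 45.1, 58.1 and 63.7 CPM in WT clones (1.69 ± 0.16). how, an RNA-binding protein of the STAR family, was at 129.9, 139 and 107 CPM in lola[E76] clones, 56.1, 70.5 and 80.2 CPM in nerfin-1[159] clones and 37.8, 21.5 and 39 CPM in WT clones (1.51 ± 0.20). Each lay above WT in both mutants, ps higher in nerfin-1[159] and how higher in lola[E76] clones (adjusted p = 0.0157 and 0.00827). Tab2, an adaptor of immune and stress signalling, was at 82, 53.9 and 62.1 CPM in lola[E76] clones, 31.7, 35.9 and 31.7 CPM in nerfin-1[159] clones and 13.5, 9.58 and 14 CPM in WT clones (1.92 ± 0.23), highest in lola[E76] clones. Faa, an enzyme of tyrosine breakdown, had 317 counts over lola[E76], 59 over nerfin-1[159] and 0 over WT libraries, at least 113-fold and 23.9-fold higher by the same limit of 3 counts.

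Among the 29 lower genes, aus had the smallest adjusted p of that fit (0.00226) and was at 433, 452 and 355 CPM in lola[E76] clones, 345, 360.1 and 395 CPM in nerfin-1[159] clones and 980.5, 814 and 864 CPM in WT clones. All 3 WT libraries lay far above the mutants (-1.19 ± 0.10). Kul, a membrane metalloprotease, was at 32.9, 29.7 and 35.7 CPM in lola[E76] clones, 30.01, 21.8 and 17.9 CPM in nerfin-1[159] clones and 81.8, 78.3 and 70.1 CPM in WT clones (-1.47 ± 0.18). mew, an integrin alpha subunit, was at 44.3, 67.7 and 60.3 CPM in lola[E76] clones, 35.7, 33.3 and 41.6 CPM in nerfin-1[159] clones and 147, 95.4 and 118 CPM in WT clones (-1.38 ± 0.17). rsh, which serves memory in adult flies, was at 46.5, 50.6 and 45.4 CPM in lola[E76] clones, 55.8, 40.4 and 37.6 CPM in nerfin-1[159] clones and 94, 112 and 76.7 CPM in WT clones (-1.03 ± 0.17), and cic, a repressor downstream of receptor tyrosine kinases, was at 321, 296 and 348 CPM in lola[E76] clones, 362, 314 and 312 CPM in nerfin-1[159] clones and 492, 475 and 511 CPM in WT clones (-0.60 ± 0.10). For rsh and cic the mutants overlapped each other and were not called different (adjusted p = 0.831 and 0.883). The noncoding RNA noe of the nervous system (lncRNA:noe) was abundant, at 3156, 2110.2 and 3407 CPM in lola[E76] clones, 5081, 5661 and 4464 CPM in nerfin-1[159] clones and 8401, 10768 and 9169 CPM in WT clones. It was lowest in lola[E76] clones and apart from WT in both (-1.30 ± 0.12, edgeR adjusted p = 1.43e-06).

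Signalling ligands moved singly. gbb, a BMP ligand, was at 23.5, 41.6 and 40.2 CPM in lola[E76] clones, 19, 26.3 and 17.3 CPM in nerfin-1[159] clones and 3.24, 8.54 and 11.7 CPM in WT clones, above WT in all 6 mutant libraries (1.76 ± 0.36, edgeR adjusted p = 0.00338). Actbeta, an Activin ligand, had 18 counts over the lola[E76] libraries, all in replicate 3, and 259 over the nerfin-1[159] libraries, against 397 in WT clones. Its average was -2.36 ± 0.50 (edgeR adjusted p = 0.00477), and -5.14 without that library. With DESeq2 it was not called (adjusted p = 0.211). Of 28 tested ligands and receptors of the Activin, BMP and Wnt families 2 rose and 2 fell (14.3% called, against 7.57% of all tested genes). Without WT replicate 2, 1 rose and 1 fell.

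Of 17 tested basement membrane and matrix genes 4 rose (Col4a1, SPARC, Ppn and PH4alphaEFB) and 2 fell (mew, an integrin alpha subunit, and Mmp2, a matrix metalloproteinase). The list's median average was 0.13. The call of Mmp2 was lost without WT replicate 1, and that of PH4alphaEFB without any 1 WT library, lola[E76] replicate 2 or nerfin-1[159] replicate 3. Over all tested genes 3.65% were called higher and 3.92% lower. Col4a1, a collagen IV of fat body and haemocytes, was at 39.4, 20.3 and 28.6 CPM in lola[E76] clones, 188, 254 and 266 CPM in nerfin-1[159] clones and 1.62, 6.46 and 7.2 CPM in WT clones. Each mutant lay above WT, nerfin-1[159] by far the highest (3.96 ± 0.31, edgeR adjusted p = 3.11e-07; -3.01 ± 0.28 between the mutants). SPARC, which binds that collagen, was at 93.9, 90.3 and 73.7 CPM in lola[E76] clones, 9.34, 12.3 and 28.3 CPM in nerfin-1[159] clones and 14, 10.2 and 14.8 CPM in WT clones, a rise of lola[E76] clones. Ppn, the matrix protein Papilin, had 76 counts over lola[E76], 51 over nerfin-1[159] and 0 over WT libraries, at least 27.0-fold and 20.7-fold higher. mew averaged -1.38 ± 0.17 (edgeR adjusted p = 4.12e-05) and Mmp2 -0.73 ± 0.16 (edgeR adjusted p = 0.00618). Of 6 tested genes on the longer list of haemocytes and fat body, Col4a1, SPARC and Ppn rose, all 3 of them also on the matrix list, and the other 3 were not called. The summed haemocyte and fat body markers were 23.5 to 54.0 CPM in lola[E76], 194 to 269 CPM in nerfin-1[159] and 3.78 to 12.5 CPM in WT clones, and their part in these rises was not tested. Of the 6 markers in that sum He and srp were at 0 in both mutants, Lsp1beta was at 0 in WT, and Col4a1 was the one that was called. Col4a1, itself 1 of these rises, made up most of the sum in all 6 mutant libraries.

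Muscle genes rose in the average, mostly through lola[E76] clones. up, a troponin T, was at 74, 50.8 and 113 CPM in lola[E76] clones, 0, 1.25 and 0.533 CPM in nerfin-1[159] clones and 1.35, 2.29 and 0.947 CPM in WT clones, and wupA, which encodes troponin I, had 363 counts over lola[E76], 7 over nerfin-1[159] and 3 over WT libraries. The called average of up (2.20 ± 0.58) rests on lola[E76] clones and was lost with voom and without nerfin-1[159] replicate 2 or 3 or WT replicate 1 or 3. Mef2, the muscle factor that neurons also use, was above WT in both mutants at 52.6 ± 14 CPM in lola[E76], 30.1 ± 2.92 CPM in nerfin-1[159] and 15.1 ± 5.66 CPM in WT clones (SD, n = 3 each; 1.39 ± 0.26, edgeR adjusted p = 0.00192). For wupA the average (4.03 ± 1.09) was not called with DESeq2 or voom, without nerfin-1[159] replicate 2, which held all 7 of those counts, without WT replicate 2 or 3 or without lola[E76] replicate 3, and was 7.17 without WT replicate 1. Of 10 tested muscle genes 4 rose, 1 without WT replicate 3 and 2 without WT replicate 1, WT replicate 2 or nerfin-1[159] replicate 2. Summed muscle markers were 105 to 180 CPM in lola[E76], 33.1 to 36.9 CPM in nerfin-1[159] and 14.3 to 27.5 CPM in WT clones, and their part in these rises was not tested. Of 12 tested glial genes 0 were called by edgeR's quasi-likelihood test, 4 had an unadjusted p under 0.05, and DESeq2 called 1 and voom 0. The glial marker sums were 155 to 221 CPM in lola[E76], 135 to 162 CPM in nerfin-1[159] and 133 to 141 CPM in WT clones.

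For some genes the average was called although the mutants were far apart. The 6 named for this, on their values, were CG6912, Cyp6d5, up, amon, ry and CG17698. CG6912 had 258 counts over lola[E76], 0 over nerfin-1[159] and 319 over WT libraries, at least 87.5-fold lower in nerfin-1[159] than in WT clones. ry, xanthine dehydrogenase, was at 57.8, 50.6 and 32.8 CPM in lola[E76] clones, 1.98, 0 and 0 CPM in nerfin-1[159] clones and 48.3, 35.8 and 63.9 CPM in WT clones. CG17698 had 3 counts over lola[E76], 172 over nerfin-1[159] and 237 over WT libraries. In each of these 3 genes 1 mutant overlapped WT and the other was close to 0, so the average lay between 2 unlike values. Without nerfin-1[159] replicate 1 the average of ry was -5.41 in place of -3.15 ± 0.40 and that of Cyp6d5 -4.20 in place of -3.18 ± 0.52, and without lola[E76] replicate 3 that of CG17698 was -4.70 in place of -3.14 ± 0.48. betaTub60D, a tubulin, was at 91.2, 96.1 and 97.4 CPM in lola[E76] clones, 3.11, 7.02 and 2.4 CPM in nerfin-1[159] clones and 3.78, 8.33 and 10.04 CPM in WT clones, and its average of 1.41 ± 0.32 comes from lola[E76] clones, since nerfin-1[159] libraries overlapped WT. GstE12 and sim, a midline and lamina factor at 20.8 ± 3.28 CPM in lola[E76], 0.722 ± 0.811 CPM in nerfin-1[159] and 19.1 ± 5.65 CPM in WT clones (SD, n = 3 each), were of the same kind, sim with -2.28 ± 0.42 in the average and -2.95 without nerfin-1[159] replicate 3.

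Called genes were spread over the chromosome arms. The share called was 6.90% on the X, 6.93% on 2L, 8.15% on 2R, 8.01% on 3L and 7.18% on 3R. On chromosome 4 it was 12 of 85 tested genes (14.1%), 3 higher and 9 lower, among them unc-13, toy and dati. lncRNA:roX2, one of the RNAs of X dosage compensation, rose in the average (0.81 ± 0.16, edgeR adjusted p = 0.00346), with lola[E76] and WT libraries overlapping (lowest lola[E76] library 87.1 CPM, highest WT library 91.5 CPM), and lncRNA:roX1 was not called (edgeR adjusted p = 0.0836).

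The genes of the common response were also set beside Lola.N contact with DNA. In Targeted DamID, a Dam methylase carried by Lola.N, an isoform of Lola, methylates nearby DNA, here in L3 optic lobe cells that express ey16F10-GAL4, and the authors' lists give peaks for 2 replicates. A peak of both replicates lay within the gene body or 1 kb of it for 149 of the 323 genes called and apart (46.1%, exact 95% binomial interval 40.6 to 51.7%). Of all tested genes with a position 2106 of 7449 had such a peak (28.3%, interval 27.3 to 29.3%). Among higher genes the share was 90 of 158 (57.0%, interval 48.9 to 64.8%) and among lower genes 59 of 165 (35.8%, interval 28.5 to 43.6%). The intervals cover counting error only.

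Gene length differed between these sets. The median length was 5139.5 bases for the higher, 13416 for the lower and 3177 for all tested genes, and its part in the shares was not tested. Among genes named here for their levels, the risers Imp, wor, ase, baz, mira, N, cno and PyK and the fallers nSyb, qvr, VAChT, unc-13, Lim1 and Eip93F were near such a peak. MtnF, qtc, CG43902, nAChRalpha7, Cat and Sema2a had no peak of both replicates in this window. These genes are examples and not all of the named genes, so their numbers give no share. Of the 223 core genes 97 were near a peak (43.5%, interval 36.9 to 50.3%).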

How the data were processed

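RNA came from sorted clone cells of optic lobes at the wandering L3 stage and was made into 3′ tag libraries with QuantSeq, per the labels' protocols. The deposited table holds the authors' raw counts per gene for 9 libraries, 3 per genotype, and limma, Subread and featureCounts are the tools in the submitters' processing notes, with no version or role. The Lola.N lists hold the authors' peak score, with Dam alone as the background per the file names; Dam-only samples were not analysed here. The sources used here do not give the genome build of the files, and gene positions came from the RefSeq table of Release 6, which names 17600 of 17633 genes.

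Genes were filtered with filterByExpr (7451 kept), scaled by TMM and fitted with the quasi-likelihood test of edgeR 4.0.16 (R 4.3.3) with 1 mean per genotype over all 9 libraries; all tests were two-sided, with Benjamini-Hochberg adjustment over all tested genes. SE is the log2 difference divided by the square root of its F. The steps were tested on simulated data in which the changed genes changed alike in both mutants. Genes that change in 1 mutant alone were not simulated. A fold against a group at 0 uses a floor of 3 counts over that group. No library duplicated another of its genotype (chi-square of their counts divided by its degrees of freedom, 10.35 or more). Antisense and overlapping genes cannot be told apart, since the sources used here do not say whether counting used strand.

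The members and the 33 gene lists (609 entries, of which 584 matched by symbol and 17 by synonym) were chosen with earlier results of these data known. Named genes were 9 set ones, the 10 higher and 10 lower genes with the largest change shared by both mutants (mean log2 CPM of at least 3), up to 3 called members per list by size, and the 6 called genes that differed most between the mutants. Other genes, 45 of them from the stricter fit, were named after their values were seen. Alternatives were library size scaling, DESeq2 1.42.0, voom of limma 3.58.1, no filter, a replicate block, 1 mean for all mutants, each library left out, and for peaks another window, replicate rule or score minimum.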

Additional observations from a re-analysis of the deposited data

Results flagged for a closer look

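The genes below were taken from the 99 genes named by rule and the 45 added from the stricter fit. They passed the edgeR test of lola[E76] against nerfin-1[159] at an adjusted p of 0.05, a contrast that uses no WT library. In these sets 56 genes passed, 33 higher in lola[E76] and 23 higher in nerfin-1[159] clones. Other genes described above, among them Rab3, Rim and GstE12, also passed it and are not listed here. All values are lola[E76] minus nerfin-1[159] on the log2 scale.

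Among regulators of progenitors and timing, the difference was -0.37 for lola, 3.95 for nerfin-1, 0.58 for chinmo, 1.17 for Imp, -0.76 for Syp, -1.43 for dpn, 0.83 for pros, -0.52 for scro, 2.75 for ImpE1 and -1.35 for E(spl)mgamma-HLH. Among cell cycle genes it was -1.09 for dup, -1.02 for Incenp and -0.89 for CycA.

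Among genes of synapses and transmission it was -2.22 for nSyb, 1.87 for Frq1, 1.12 for VAChT, 1.28 for ChAT, 0.33 for unc-13, -2.78 for Lcch3, -1.53 for GABA-B-R1, 0.94 for nAChRalpha7 and -6.27 for amon. Among channels it was -1.73 for qvr, -2.40 for Ca-alpha1D and 2.00 for Sh. Among identity, recognition and cytoskeletal genes it was 3.28 for ap, -0.63 for Lim1, -1.02 for dac, 4.81 for sim, 0.94 for Con, 0.96 for Fas2, 5.13 for dpr2, 0.48 for klg, 4.48 for betaTub60D, 0.37 for stai, 0.67 for fne and -0.81 for lncRNA:noe.

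Among metabolic, stress and death genes it was -1.98 for Glut1, 0.86 for hid, -0.90 for egr, 0.66 for Hsp23, 2.19 for Faa, 7.64 for Cyp6d5 and 6.17 for ry. Among ligands, matrix and muscle genes it was -4.07 for Actbeta, 1.21 for myo, -3.01 for Col4a1, 2.37 for SPARC, 0.64 for mew, 5.40 for wupA and 6.94 for up. For the others it was 0.99 for Tab2, -0.63 for ps, 0.86 for how, 9.38 for CG6912 and -5.92 for CG17698.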

How the results depend on the processing

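Signs and calls of single genes were followed for the 99 genes named by rule and the 45 added from the stricter fit. Among these chinmo, which was not called, changed the sign of its average (0.06 without WT replicate 2). No other gene of these sets did so in the alternatives run. Of the 99 genes 96 were called, 63 whichever library was left out, and 18 with 1 mean for all 6 mutant libraries. That last fit, in which differences between the mutants count as error, lowered the 564 called genes to 63, of which 34 were higher (272 with 3 means) and 29 lower (292 with 3 means). All 63 lay apart from WT, against 323 called and apart with 3 means (158 higher, 165 lower). Leaving out 1 library gave 341 to 594 called genes, 165 to 272 higher and 176 to 322 lower, and for lola[E76] against WT 315 to 430. The lowest counts came without WT replicate 2, and 315 without WT replicate 1 as well. The average called 521 genes scaled by library size, 687 with DESeq2, 598 with voom and 753 without the filter on low counts, where 13 G1 to S genes were called higher in place of 4 and 9 guidance genes lower in place of 3. Replicate numbers did not pair libraries of different genotypes (r of deviations -0.056 to 0.023, with the best match at the own number for 1 of 9), and the fit with a replicate block called 518 genes, without dpr2, dup, Klp61F, ImpL2, Nop60B, lin-28 and wupA among those named. The share of genes near a Lola.N peak was 60.7% in a window of 5 kb (45.1% of all tested genes), 63.5% with a peak of either replicate (44.5%) and 32.8% with the higher-scored part of each list, split at its median score (15.9%). The causes of these changes were not tested. Of single genes, Syp was called with voom and without the filter. With voom 11 genes of these sets lost their call (lin-28, ImpL2, dup, Klp61F, up, wupA, betaTub60D, GstE6, GstD9, snoRNA:185 and CG15362). With DESeq2 5 did (CycE, vvl, Actbeta, lin-28 and wupA), and scaled by library size scro did. At 3465601 to 5200223 counts a library, genes near 1 CPM rest on few counts.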
